A study of Mus musculus with 9 samples.

Results

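Ehf, Upb1, Kcnq1, Calcb and Mucl1 are 5 genes whose transcripts were nearly absent from wound macrophages at day 4 after skin injury and present at day 14. They are 5 of the 18303 gene symbols in the deposited count table, and they were chosen from the measured difference between the 2 days in these same libraries. Their levels and fold changes are therefore given as a description, without a test. The study compared late with early macrophages of healing skin by RNA sequencing. There were 5 libraries from day 14 and 4 from day 4, all from wounded C57BL/6J wild-type animals. In both groups the cells were sorted as CD45+CD11b+F4/80+ (they were also stained for CD115, and dead cells were gated out with 7-AAD), that is, positive for a marker of blood-derived cells and for 2 surface proteins of macrophages, and were processed for RNA with no treatment after sorting. No label states whether each library was a separate animal, and p-values here therefore speak only of the variation among these samples, part of which may be technical. The libraries were bulk samples, in which fewer cells of a type and less RNA per cell cannot be told apart.

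The genes belong to 5 unrelated families. Ehf encodes a transcription factor of the ETS family, best known from epithelial cells, and Upb1 encodes beta-ureidopropionase, the enzyme of the last step in the breakdown of uracil and thymine, known mainly from liver and kidney. Kcnq1 encodes the pore-forming subunit of a voltage-gated potassium channel of heart and epithelia. Calcb encodes the beta form of calcitonin gene-related peptide (CGRP), a neuropeptide of sensory and enteric neurons, and Mucl1 is named as a mucin-like gene, whose human counterpart encodes a small secreted protein. Macrophages are not the cells in which these genes are usually described. Skin also holds keratinocytes, nerve endings, Schwann cells and dendritic cells, some of which carry CD11b.

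The labelled cell type was checked on its defining genes. Lyz2, Csf1r, C1qa and the 3 sort marker genes were abundant on both days. Csf1r, the receptor for macrophage colony-stimulating factor, averaged 1961 ± 104 CPM (each library's counts scaled to a common total by TMM factors, the usual CPM; mean ± SD) at day 14 and 1990 ± 179 CPM at day 4, and Emr1, the gene of F4/80, averaged 1345 ± 111 CPM at day 14 and 1036 ± 54.6 CPM at day 4. Fibroblast genes were abundant too, with sums over 11 genes of 5962 to 9672 CPM at day 14 and 10820 to 21790 CPM at day 4. The 10 macrophage and sort genes summed to 21320 to 24330 CPM at day 14 and 19050 to 21390 CPM at day 4. The part of fibroblast RNA in the values of the 5 genes was not tested. Total counts per library ran from 17982633 to 57809918. Day 14 replicate 5 held almost no counts for Aplp2, for the rest of chromosome 9 after it and for chromosomes X and Y (1504 genes in all, 0.0254% of its counts against a mean of 7.55% in the 8 other libraries). None of the 5 genes lies there (0 of 5), and list genes that do were fitted and averaged without that library and left out of the summed levels. Every pair of libraries of 1 day differed by more than sampling noise, with a chi-square of 11.58 to 79.32 for each degree of freedom.

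All 5 genes had between 2.39 and 38.4 CPM in every day 14 library and between 0.0799 and 1.24 CPM in every day 4 library. The 2 days did not overlap for any of them, which the choice of the genes fixes. By ratio of mean CPM, Mucl1 was 56.7-fold, Upb1 36.9-fold, Ehf 34.2-fold, Calcb 28.2-fold and Kcnq1 16.8-fold higher at day 14. In a quasi-likelihood fit (edgeR) of 13353 genes, 2144 (16.1%) passed a Benjamini-Hochberg adjusted p of 0.05 as higher at day 14 and 1988 (14.9%) as lower. The median log2 fold change of all tested genes was 0.0122. All 5 genes passed the filter on low counts, and they could do so through their day 14 level alone.

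**Figure D1:**
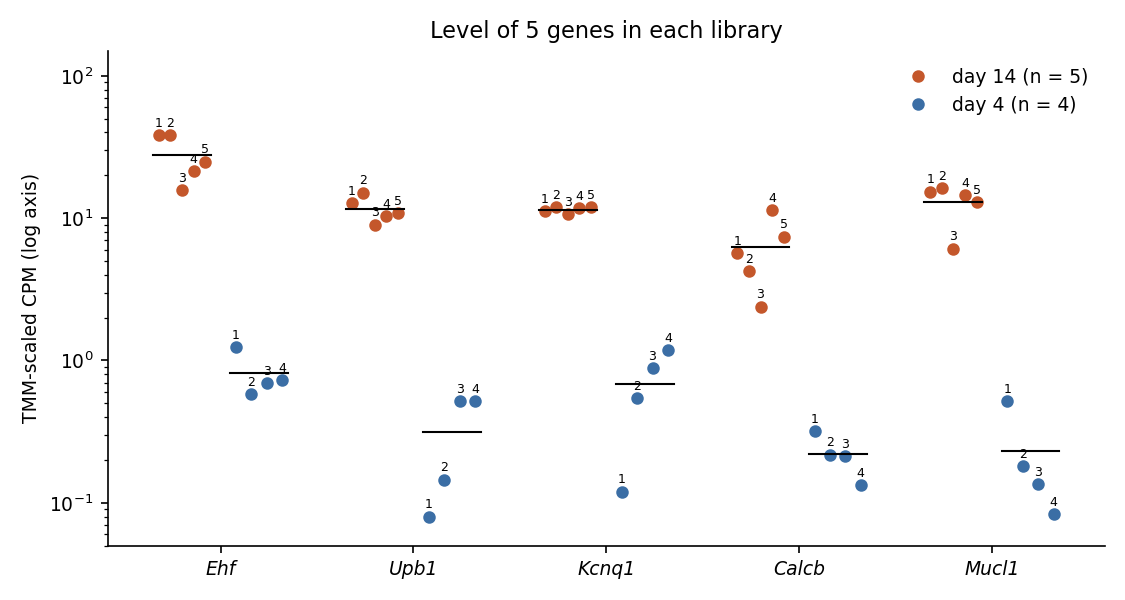
TMM-scaled CPM (log axis) of Ehf, Upb1, Kcnq1, Calcb and Mucl1 in each library, day 14 (n = 5) left of day 4 (n = 4). Points are libraries with their replicate number and bars are means. Every day 14 point lies at 2.39 CPM or above and every day 4 point at 1.24 CPM or below.

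Few genes shared this pattern. A day 4 mean under 1 CPM with a day 14 mean of at least 5 CPM was found for 11 tested genes, and the reverse for 3. Besides the 5 genes, the 11 were Igj, the joining chain of secreted antibodies (52.8-fold), Gbp2b, a guanylate-binding protein (13.1-fold), Rgs5, a regulator of G-protein signalling known from pericytes (12.9-fold), Perp, a protein of epithelial cell junctions (8.37-fold), Lepr, the leptin receptor (7.25-fold), and Il12b, the shared subunit of interleukins 12 and 23 (6.75-fold). With at least 5 CPM at day 14 and at least a 16-fold difference, the 5 genes stood beside Igj, Retnla (20.9-fold) and Ear2 (19.9-fold), 8 genes in all. Retnla and Ear2 already held 104 and 13.8 CPM at day 4, whereas the 5 genes and Igj were under 1 CPM there.

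**Figure D2:**
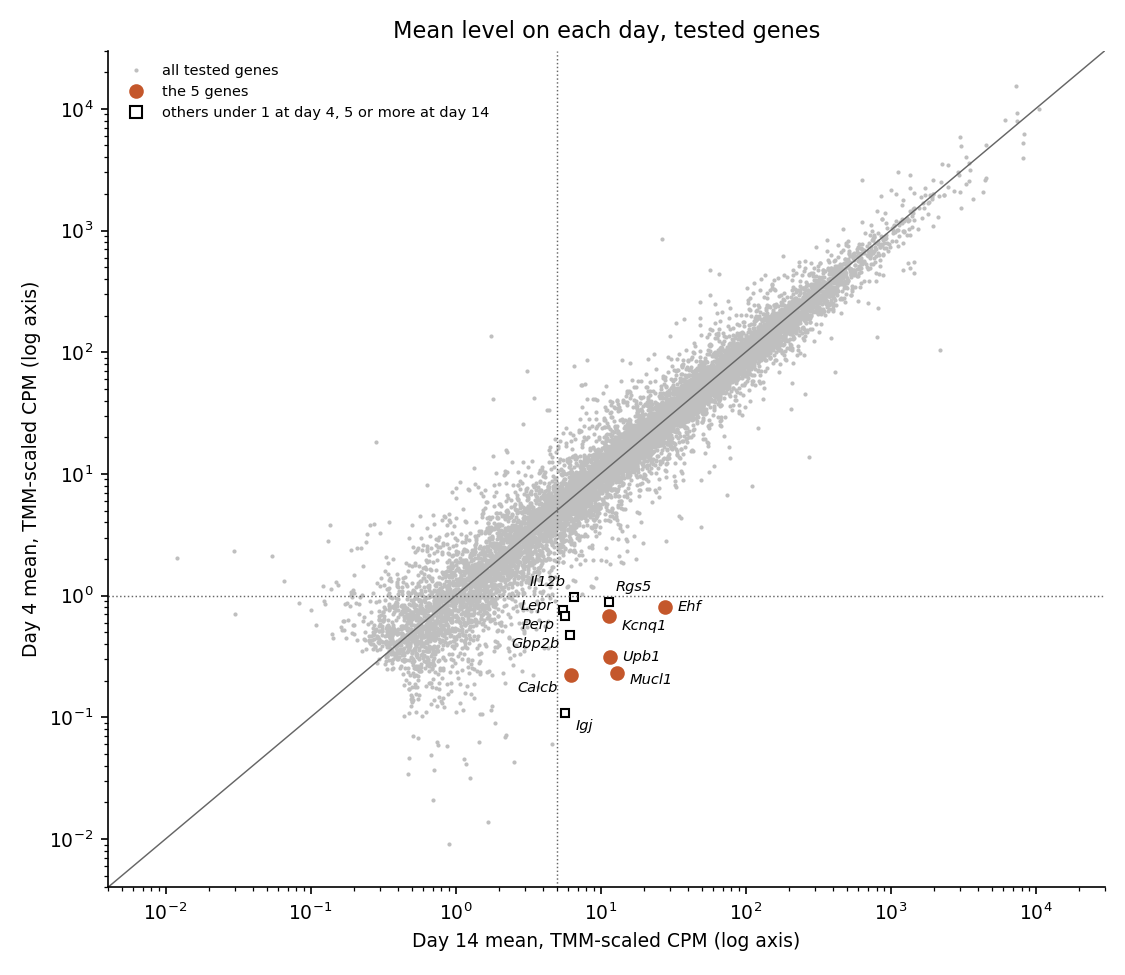
Mean TMM-scaled CPM of 13351 tested genes at day 14 (horizontal, log axis) and day 4 (vertical, log axis); 2 genes with a mean of 0 on a day are not drawn. Dotted lines mark 5 CPM at day 14 and 1 CPM at day 4. The 5 genes (filled) and 6 others (open squares) lie in the lower right field, and the diagonal marks equal levels.

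Ehf lies at chr2:103263431-103303275 (GRCm38, RefSeq gene limits; minus strand, 9 exons in the longest coding transcript of GENCODE vM21). It had 38.3, 38.4, 15.7, 21.3 and 24.95 CPM in day 14 replicates 1 to 5, against 1.24, 0.581, 0.694 and 0.731 CPM in day 4 replicates 1 to 4. These values rest on 1881, 971, 382, 432 and 497 estimated counts at day 14, against 31, 16, 36 and 44 at day 4. The mean was 27.7 ± 10.2 CPM at day 14 (SD, n = 5) and 0.811 ± 0.292 CPM at day 4 (n = 4), with a log2 fold change of 5.14. Its lowest day 14 library was 12.7 times its highest day 4 library. Day 14 replicates 1 and 2 were alike and the other 3 were lower, with 2.44-fold between the highest and the lowest. The lowest day 4 count, 16, has a 95% Poisson interval of 9.15 to 26, which covers counting error only.

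Of the 19 other ETS factors tested, 3 were higher and 1 lower at day 14, beside 16.1% and 14.9% of all genes tested, and their median log2 fold change was 0.09. Etv3, an ETS repressor, rose to 700 ± 108 CPM at day 14, against 251.4 ± 21.9 CPM at day 4 (log2 fold change 1.48 ± 0.121 SE, adjusted p = 5.35e-06). Etv1 also rose (31.2 ± 3.72 CPM at day 14 against 18.4 ± 3.82 CPM at day 4, adjusted p = 0.00175), as did Fli1, an ETS factor of blood cells (97.9 ± 10.7 CPM at day 14 against 75.4 ± 6.28 CPM at day 4, adjusted p = 0.0165 on 8 libraries, and no longer under 0.05 without day 4 replicate 4), and Elk3 fell (77.4 ± 3.62 CPM at day 14 against 116 ± 9.33 CPM at day 4, adjusted p = 0.000158). Spi1, the ETS factor PU.1 of myeloid cells, had 151 ± 15.4 CPM at day 14 and 164 ± 28.8 CPM at day 4 (adjusted p = 0.475). The 3 other ETS factors of epithelial cells in the list were near 0: Elf3 and Elf5 had 0 counts in every day 14 library, and Spdef averaged 0.0165 CPM at day 14 and 0.0290 CPM at day 4. On chromosome 2 the nearest gene on one side was A930006I01Rik, a long noncoding RNA gene, which averaged 0.222 CPM at day 14 and was at 0 in every day 4 library. On the other side was Apip, an enzyme of methionine salvage, with 11.5 ± 1.27 CPM at day 14 and 11.5 ± 1.399 CPM at day 4 (adjusted p = 0.993).

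Upb1 lies at chr10:75406911-75441679 (GRCm38, plus strand, 10 exons). It had 12.7, 15.1, 9.01, 10.3 and 10.9 CPM in day 14 replicates 1 to 5, against 0.0799, 0.145, 0.520 and 0.515 CPM in day 4 replicates 1 to 4. In counts these were 625, 383, 219, 209 and 217 at day 14, against 2, 4, 27 and 31 at day 4. The mean was 11.6 ± 2.38 CPM at day 14 and 0.315 ± 0.235 CPM at day 4, a log2 fold change of 4.98, and the day 14 libraries differed by 1.68-fold at most. At day 4 the 2 deeper libraries held more than the 2 shallower ones (means of 0.518 and 0.113 CPM). The lowest day 4 library held only 2 counts (95% Poisson interval 0.242 to 7.22), and the 2 deeper ones held 27 and 31. The cause of this difference between the day 4 libraries was not tested. In the 6 shallower libraries the log2 fold change was 6.56.

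Upb1 acts after Dpyd and Dpys, the first and second enzymes of the same pathway. Dpys, dihydropyrimidinase, rose to 1.65 ± 0.456 CPM at day 14, against 0.235 ± 0.0792 CPM at day 4 (log2 fold change 2.74 ± 0.335 SE, adjusted p = 9.74e-05). Dpyd, the rate-limiting first enzyme, averaged 0.405 ± 0.0984 CPM at day 14 and 0.431 ± 0.216 CPM at day 4 (adjusted p = 0.970). Of the 5 other genes of pyrimidine breakdown tested, 2 were higher (Dpys and Aldh6a1) and 0 lower, beside 16.1% and 14.9% of all genes. Their median log2 fold change was 0.37. Aldh6a1, a mitochondrial dehydrogenase of the products of thymine breakdown, had 18.4 ± 2.43 CPM at day 14 and 14.3 ± 1.34 CPM at day 4 (adjusted p = 0.0292), and 6 of the 9 fits that left out 1 library no longer called it. The uridine phosphorylase gene Upp1 averaged 5.52 ± 6.12 CPM at day 14 and 21.9 ± 15.9 CPM at day 4 (adjusted p = 0.0845). The 2 genes next to Upb1 on chromosome 10, Gm5779 and 4933407G14Rik, averaged under 0.1 CPM on both days.

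Kcnq1 lies at chr7:143106877-143427050 (GRCm38, plus strand, 16 exons). It had 11.1, 11.9, 10.7, 11.8 and 11.9 CPM in day 14 replicates 1 to 5, against 0.1199, 0.544, 0.886 and 1.18 CPM in day 4 replicates 1 to 4. The mean was 11.5 ± 0.546 CPM at day 14 and 0.683 ± 0.456 CPM at day 4, a log2 fold change of 3.93. It was the most even of the 5 genes at day 14, with 1.12-fold between the highest and the lowest library, and among the less even ones at day 4. Day 4 counts were 3, 15, 46 and 71, and the 2 deeper day 4 libraries again lay above the 2 shallower ones (means of 1.03 and 0.332 CPM). In the 6 shallower libraries the log2 fold change was 5.05.

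Kcnq1 shares its locus with Kcnq1ot1, a long RNA transcribed from the other strand, known for the imprinted silencing of neighbouring genes on the paternal chromosome. The strand setting of the counting is not stated. Without strand, reads that lie wholly where both genes overlap cannot be told apart. Of the 16 exons of Kcnq1, 1 lies within Kcnq1ot1: exon 11, 121 coding bases at chr7:143261256-143261376 (GRCm38, plus strand). It is shown because it is the stretch of the Kcnq1 transcript whose reads either gene could have given, 5′ to 3′ from the GENCODE vM21 transcript and in lower case throughout, since all of it is shared:
Kcnq1 exon 11: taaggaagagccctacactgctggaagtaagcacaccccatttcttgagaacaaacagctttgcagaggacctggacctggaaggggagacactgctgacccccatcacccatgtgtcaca
Of the 2930 windows of 100 bases (the read length) in the Kcnq1 transcript, 26 (0.887%) occur in Kcnq1ot1, and none in another gene. In the deposited counts, Kcnq1 was not a whole number in 3 libraries (day 14 replicates 1, 2 and 4), and in all 3 the sum with Kcnq1ot1 was whole within 0.0015 (915, 491 and 423 counts). The counts of the 4 other genes were whole in all 9 libraries.

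Kcnq1ot1 itself averaged 7.42 ± 1.38 CPM at day 14 and 5.89 ± 0.873 CPM at day 4 (log2 fold change 0.33 ± 0.165 SE, adjusted p = 0.148). Kcnq1 took 56.3% to 67.0% of the counts of the pair in the day 14 libraries and 2.08% to 15.5% in the day 4 libraries. The protein-coding genes of the same imprinted region on chromosome 7 included Cdkn1c, a cell cycle inhibitor next to Kcnq1, which rose to 5.78 ± 0.516 CPM at day 14, against 2.88 ± 0.839 CPM at day 4 (adjusted p = 0.00186), and the tetraspanin Cd81, which rose to 210.5 ± 10.5 CPM at day 14, against 56.1 ± 10.1 CPM at day 4 (adjusted p = 5.42e-07). Tspan32 and the growth factor gene Igf2 rose too. Beside 16.1% and 14.9% of all genes tested, 4 of the 12 other tested genes of the cluster were higher and 0 lower. Their median log2 fold change was 0.22. Trpm5, on the other side of Kcnq1, was at 0 in every day 4 library and averaged 0.0319 CPM at day 14.

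The accessory subunits of the Kcnq1 channel are encoded by the Kcne genes. Kcne3, the subunit with which the channel is known from epithelia, rose to 2.34 ± 0.543 CPM at day 14, against 0.459 ± 0.376 CPM at day 4 (log2 fold change 2.21 ± 0.454 SE, adjusted p = 0.00327). By library, Kcne3 had 2.20, 3.28, 2.30, 1.98 and 1.96 CPM at day 14, against 0.160, 0.109, 0.771 and 0.797 CPM at day 4, and like Kcnq1 it was lower in the 2 shallower day 4 libraries than in the 2 deeper ones. Kcne4 averaged 3.73 ± 0.974 CPM at day 14 and 5.68 ± 2.76 CPM at day 4 (adjusted p = 0.13), and the anchoring protein gene Akap9 averaged 84.8 ± 5.28 CPM at day 14 and 80.4 ± 7.41 CPM at day 4 (adjusted p = 0.501). These 3 were the other tested genes of that list, with 1 higher and 0 lower, beside 16.1% and 14.9% of all genes.

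Calcb lies at chr7:114716555-114723368 (GRCm38, plus strand, 5 exons). It had 5.68, 4.23, 2.39, 11.4 and 7.43 CPM in day 14 replicates 1 to 5, against 0.320, 0.218, 0.212 and 0.133 CPM in day 4 replicates 1 to 4. In counts these were 279, 107, 58, 231 and 148 at day 14, against 8, 6, 11 and 8 at day 4. Calcb averaged 6.23 ± 3.44 CPM at day 14 and 0.221 ± 0.0766 CPM at day 4 (log2 fold change 4.88). It was the most variable of the 5 genes at day 14, with 4.78-fold between replicates 4 and 3, and its lowest day 14 library was still 7.46 times its highest day 4 library.

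Calcb and its neighbour Calca, which encodes calcitonin and the alpha form of CGRP, are near-identical over part of their coding sequence. The 120 bases where they are most alike, bases 230 to 349 of 390 in the coding sequence of Calcb and 227 to 346 of 384 in that of Calca, are shown 5′ to 3′ from the GENCODE vM21 transcripts, with the 5 bases that differ in capitals, because they show how far reads could be shared:
Calcb: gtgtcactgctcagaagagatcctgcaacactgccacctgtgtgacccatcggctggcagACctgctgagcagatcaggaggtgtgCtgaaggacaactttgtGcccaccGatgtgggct
Calca: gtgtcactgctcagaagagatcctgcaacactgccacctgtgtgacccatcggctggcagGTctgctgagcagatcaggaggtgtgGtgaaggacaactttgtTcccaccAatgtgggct
The longest identical stretch of the 2 transcripts was 60 bases, and 0 of the 863 windows of 100 bases in Calcb occur in another gene. The longest identical stretch with any other gene was 48 bases for Ehf, 47 for Upb1 and 50 for Mucl1 (the last shared with Mucl2), also shorter than a read. Calca averaged 0.110 CPM at day 14 and 0.0488 CPM at day 4, and Insc, the gene on the other side of Calcb, 0.262 CPM at day 14 and 0.0348 CPM at day 4.

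Of the CGRP receptor, both parts were present. Calcrl, the receptor itself, had 45.6 ± 6.24 CPM at day 14 and 35.1 ± 6.18 CPM at day 4 (adjusted p = 0.0421), but 6 of the 9 fits that left out 1 library did not call it. Ramp1, the co-receptor that makes Calcrl a CGRP receptor, rose to 13.3 ± 1.17 CPM at day 14, against 5.51 ± 0.486 CPM at day 4 (log2 fold change 1.26 ± 0.112 SE, adjusted p = 1.01e-05). Ramp2 and Ramp3, which pair Calcrl with adrenomedullin, averaged 1.79 ± 0.341 and 47.5 ± 10.7 CPM at day 14, against 2.08 ± 0.311 and 37.0 ± 7.20 CPM at day 4 (adjusted p = 0.475 and 0.124). Adm, the gene of adrenomedullin, fell to 2.94 ± 0.536 CPM at day 14, against 6.78 ± 1.32 CPM at day 4 (adjusted p = 0.000400). In all, 2 of the 6 other tested genes of the CGRP system were higher and 1 lower, beside 16.1% and 14.9% of all genes. Their median log2 fold change was 0.16.

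The list of neuron and Schwann cell genes, in which Calcb could be looked for, did not move one way. Of 9 tested, 3 were higher at day 14 (beside 16.1% of all genes) and 3 lower (beside 14.9%). The lower ones were Tubb3, Ret and Uchl1, genes of neurons. Sox10, a transcription factor of Schwann cells and melanocytes, was among the higher genes, with 0.387, 0.514, 1.44, 0.198 and 0.954 CPM in day 14 replicates 1 to 5, against 0, 0, 0 and 0.0831 CPM in day 4 replicates 1 to 4 (adjusted p = 0.00245). Its highest value was in day 14 replicate 3, the library in which Calcb was lowest. The defining genes of sensory neurons were near 0: Prph averaged 0.116 CPM at day 14 and 0.0361 CPM at day 4, Trpv1 0.0183 CPM at day 14 and 0.00907 CPM at day 4, and Scn10a 0.0376 CPM at day 14 and 0.00904 CPM at day 4. The summed level of the list, most of it Mbp, was 66.9 to 73.6 CPM at day 14 and 69.6 to 78.9 CPM at day 4. The part of these cells in the Calcb values was not tested.

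Mucl1 lies at chr15:103751923-103755498 (GRCm38, minus strand, 4 exons). The RefSeq table lists it as a transcribed pseudogene, and GENCODE vM21 as protein coding. It had 15.3, 16.2, 6.09, 14.5 and 13.004 CPM in day 14 replicates 1 to 5, against 0.520, 0.181, 0.135 and 0.0831 CPM in day 4 replicates 1 to 4. In counts these were 753, 411, 148, 294 and 259 at day 14, against 13, 5, 7 and 5 at day 4. The mean was 13.04 ± 4.06 CPM at day 14 and 0.230 ± 0.197 CPM at day 4, and the log2 fold change was 6.06. Of the day 14 libraries, 4 lay close together and replicate 3 was lower, 2.67-fold below the highest. Day 4 replicate 1 was the highest on that day, and without it the log2 fold change was 6.68.

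Of the 5 other mucins tested, 2 were higher at day 14, beside 16.1% of all genes. Cd164, a mucin-like adhesion protein of blood cells, rose to 433 ± 53.2 CPM at day 14, against 320 ± 40.5 CPM at day 4 (adjusted p = 0.0136), and Emcn, endomucin of endothelial cells, rose to 1.74 ± 0.556 CPM at day 14, against 0.616 ± 0.289 CPM at day 4 (adjusted p = 0.00912). None was lower (0 of 5, beside 14.9% of all genes), and the median log2 fold change was 0.42. Muc1, a mucin of epithelial surfaces, averaged 1.14 ± 0.213 CPM at day 14 and 1.07 ± 0.405 CPM at day 4 (adjusted p = 0.847). Spt1, the next gene after Mucl1 on chromosome 15 and named Mucl2 in RefSeq, was at 0 at day 4 and averaged 0.0100 CPM at day 14, and Glycam1 on the other side averaged 0.00823 CPM at day 14 and 0.0181 CPM at day 4.

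Levels of different genes were compared per transcript length. Per kilobase of the longest coding transcript at day 14, Mucl1 was the highest with 17.2 ± 5.36 CPM per kilobase. Calcb (6.47 ± 3.58) and Ehf (6.21 ± 2.29) followed, then Upb1 (3.82 ± 0.781) and Kcnq1 (3.79 ± 0.180), all in CPM per kilobase, and within each of these pairs the levels did not differ beyond their SDs. At day 4 the 5 genes had 0.104 to 0.303 CPM per kilobase.

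The spread between day 14 libraries separated Kcnq1 from the others. Its coefficient of variation was 4.75%, and only 4.16% of tested genes within 2-fold of its level varied less. Ehf (36.8%), Calcb (55.2%) and Mucl1 (31.2%) varied more than 98.9%, 98.2% and 96.3% of the genes within 2-fold of their levels, and Upb1 (20.4%) more than 84.4%. The median coefficient of variation of such genes was 10.1% to 15.3%. All 5 genes had their lowest day 14 value in replicate 3 under TMM, RLE and upper-quartile scaling. Under total counts 4 did, and Kcnq1, whose libraries differed little, was lowest in replicate 1. This count was made after the values were seen. Of the 11157 tested genes with at least 1 CPM at day 14, 30.3% were lowest in that library. The highest value was in replicate 2 for Ehf, Upb1 and Mucl1, in replicate 4 for Calcb and in replicate 5 for Kcnq1.

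Day 14 replicate 3 also stood apart in genes of other cells. The summed level of the neutrophil genes was 1511 CPM there and 223 to 692 CPM in the 4 other day 14 libraries, while the summed epithelial genes were at 38.6 CPM there and 22.7 to 30.2 CPM in the others. The endothelial sum was 85.5 CPM there and 36.4 to 57.5 CPM in the others. The dendritic core genes were at their lowest sum in this library, 1755 CPM against 1824 to 2119 CPM. Most of that sum was Cd83, with 1565, 1450, 1201, 1390 and 1212 CPM in day 14 replicates 1 to 5. Among the other core genes, Dpp4 and Ccr7 were also lowest in replicate 3, whereas Batf3, Bcl11a and Fscn1 were highest there. The part of these cells in the values of the 5 genes was not tested.

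**Figure D3:**
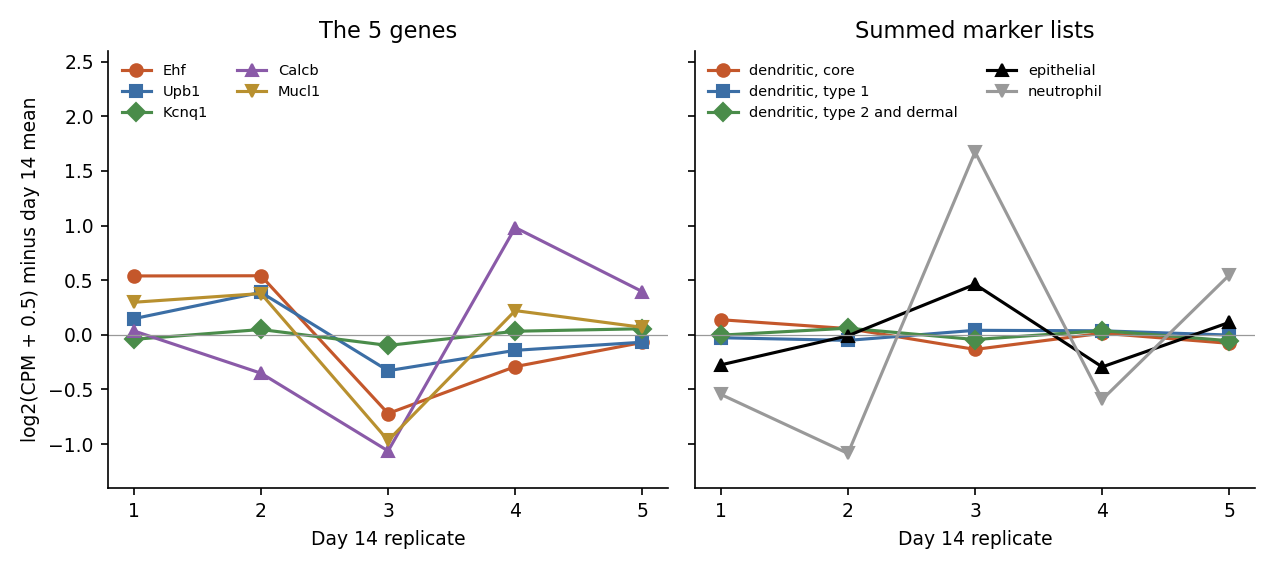
Centred log2(CPM + 0.5) over the 5 day 14 libraries for the 5 genes (left) and for the summed levels of 5 marker lists (right); lines only join the values of a gene or list. All 5 genes are lowest in replicate 3 (4 under total-count scaling, where Kcnq1 is lowest in replicate 1), whereas the neutrophil (1511 CPM) and epithelial (38.6 CPM) sums are highest there.

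Most dendritic cell genes were higher at day 14. Of 34 tested among 35 in the table, 20 were higher (beside 16.1% of all genes) and 2, Tnfsf4 and Sirpa, lower (beside 14.9%), with a median log2 fold change of 0.95. Of 12 core genes, 9 were higher and 0 lower. Batf3, a transcription factor needed for type 1 dendritic cells, rose to 14.1 ± 0.866 CPM at day 14, against 3.42 ± 1.54 CPM at day 4 (log2 fold change 2.00 ± 0.243 SE, adjusted p = 9.18e-05). H2-DMb2, a chaperone of antigen loading, rose to 13.5 ± 2.08 CPM at day 14, against 2.098 ± 0.245 CPM at day 4 (adjusted p = 3.56e-07), and Zbtb46, a transcription factor of conventional dendritic cells, rose to 9.97 ± 1.76 CPM at day 14, against 3.68 ± 0.693 CPM at day 4 (adjusted p = 6.39e-05). Flt3, the growth factor receptor of dendritic cells and their precursors, had 16.2 ± 4.09 CPM at day 14 and 15.1 ± 3.53 CPM at day 4 (adjusted p = 0.736). The core sum was 1755 to 2119 CPM at day 14 and 735 to 896 CPM at day 4, and Cd83, a surface protein of mature dendritic cells, averaged 1364 ± 157 CPM of it at day 14 and 490 ± 64.2 CPM at day 4. Most of the core sum was thus a single gene, and it is no measure of a share of dendritic cells.

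Of 13 genes of type 2 and dermal dendritic cells, 8 were higher and 2 lower, beside 16.1% and 14.9% of all genes. Cd226, an adhesion receptor, rose to 111 ± 21.5 CPM at day 14, against 7.91 ± 0.832 CPM at day 4 (log2 fold change 3.802 ± 0.164 SE, adjusted p = 3.93e-08). The transcription factor Irf4 rose to 259 ± 35.5 CPM at day 14, against 45.4 ± 6.61 CPM at day 4 (adjusted p = 2.19e-07), and the lectin Mgl2 to 415 ± 40.3 CPM at day 14, against 68.8 ± 14.8 CPM at day 4 (adjusted p = 3.56e-07). The chemokine Ccl17 had 7.80, 6.95, 7.94, 32.4 and 16.1 CPM in day 14 replicates 1 to 5, against 2.40, 1.60, 1.16 and 2.21 CPM in day 4 replicates 1 to 4 (adjusted p = 0.00218), and its highest libraries, replicates 4 and 5, were also those of Calcb. The sum of these 13 genes was 3074 to 3328 CPM at day 14 and 2253 to 2477 CPM at day 4. Several of them, Mgl2, Irf4 and Sirpa included, are also expressed by macrophages, so the list is no measure of a share of cells.

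Of 9 tested genes of type 1 dendritic cells, 3 were higher and 0 lower, beside 16.1% and 14.9% of all genes. Xcr1, their chemokine receptor, rose to 7.38 ± 1.58 CPM at day 14, against 3.09 ± 1.60 CPM at day 4 (adjusted p = 0.0129 on 8 libraries), and Clec9a to 2.18 ± 0.625 CPM at day 14, against 0.818 ± 0.302 CPM at day 4 (adjusted p = 0.00438). The summed level of the 7 genes not affected by the missing counts was 247 to 263 CPM at day 14 and 196 to 284 CPM at day 4, so that the 2 days overlapped. Cd207, the langerin gene of Langerhans cells, rose to 7.65 ± 2.16 CPM at day 14, against 3.07 ± 0.652 CPM at day 4 (adjusted p = 0.000796). It was 1 of 2 higher genes among 6 Langerhans cell genes tested, with 0 lower, and their sum was 15.9 to 24.6 CPM at day 14 and 10.5 to 15.9 CPM at day 4.

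Epithelial genes were low on both days, and those that passed the test rose. Of 29 in the table, 13 passed the filter on low counts, 8 of these were higher (beside 16.1% of all genes) and 0 lower, and the median log2 fold change was 2.25. They could pass through their day 14 level alone, and 20 of the 29 averaged under 1 CPM on both days. Without day 14 replicate 2 or without day 4 replicate 3, 5 were called higher. Krt14, a keratin of basal keratinocytes, had 1.20, 2.65, 4.16, 1.19 and 2.46 CPM in day 14 replicates 1 to 5, against 0.0799, 1.16, 0.424 and 0.116 CPM in day 4 replicates 1 to 4 (log2 fold change 2.45 ± 0.652 SE, adjusted p = 0.0147). Krt5, its partner keratin, rose to 1.88 ± 0.890 CPM at day 14, against 0.424 ± 0.497 CPM at day 4 (adjusted p = 0.0192). Day 4 replicate 2 (1.16 CPM for each keratin) lay just under the lowest day 14 library for Krt14 and within the day 14 range for Krt5, which was not called without day 4 replicate 3.

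Perp was also among the 11 genes nearly absent at day 4. It had 6.48, 7.27, 4.81, 4.64 and 5.17 CPM in day 14 replicates 1 to 5, against 0.639, 0.762, 0.462 and 0.847 CPM in day 4 replicates 1 to 4 (log2 fold change 3.06 ± 0.236 SE, adjusted p = 3.14e-06). The other higher genes were Krt17, Dsp, Dsc3, Trp63 and Epcam, genes of keratins, desmosomes, basal cell identity and cell adhesion, each under 1.5 CPM at day 14, and Epcam was no longer called without day 14 replicate 2, day 4 replicate 3 or day 4 replicate 4, nor Trp63 without either of the last 2. Cdh1, the gene of E-cadherin, averaged 4.36 ± 1.91 CPM at day 14 and 4.84 ± 0.974 CPM at day 4 (adjusted p = 0.689). Krt8, Elf3 and Elf5 had 0 counts in all day 14 libraries. The epithelial sum was 22.7 to 38.6 CPM at day 14 and 12.7 to 18.1 CPM at day 4. The part of keratinocyte RNA in the levels of Ehf, Kcnq1 and Mucl1 was not tested.

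**Figure D4:**
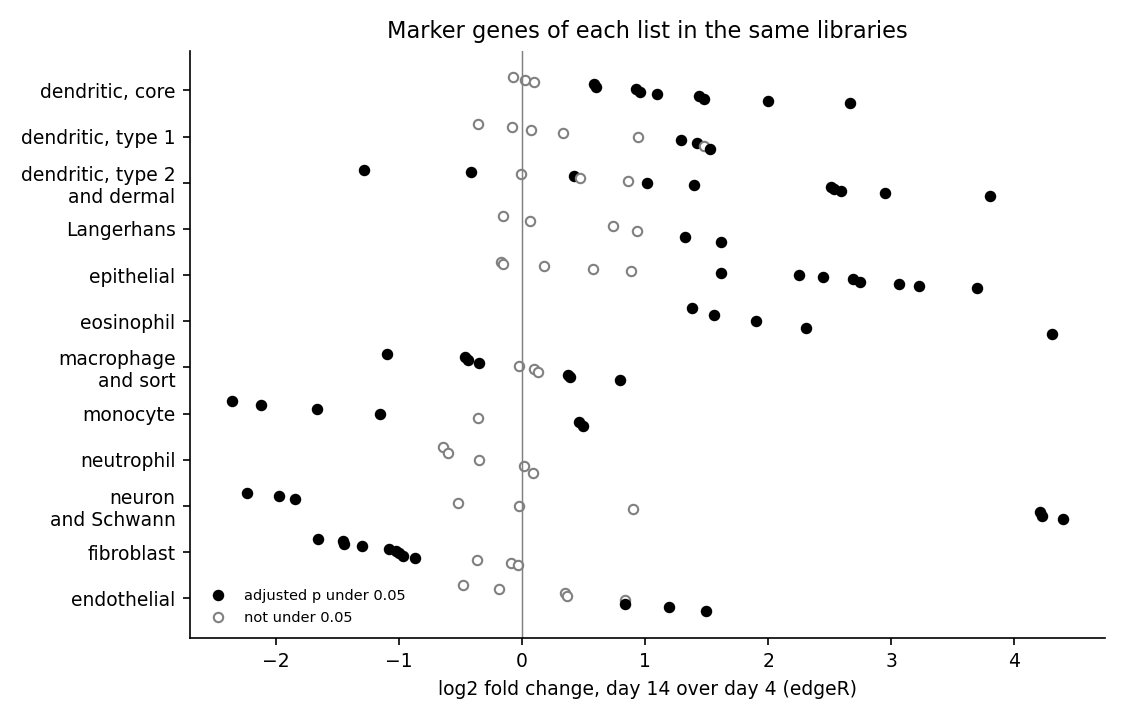
Log2 fold change, day 14 over day 4, of the tested genes of 12 marker lists; filled points have an adjusted p under 0.05 (edgeR). Of the epithelial genes drawn 8 are filled and to the right, of the 3 dendritic lists together 20 are filled to the right and 2 to the left, and all 5 eosinophil genes are filled to the right.

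Other lists moved as well, and their counts stand beside 16.1% of all genes higher and 14.9% lower. All 5 tested eosinophil genes were higher (5 of 5), and their sum was 235 to 344 CPM at day 14 and 19.92 to 25.02 CPM at day 4, most of it Ear2. Ear2, an eosinophil-associated ribonuclease, belongs to a family of near-identical copies, so its counts are uncertain. Prg2 rose to 12.8 ± 2.25 CPM at day 14, against 4.36 ± 1.16 CPM at day 4 (adjusted p = 8.05e-05). Ccr3 rose to 32.5 ± 10.5 CPM at day 14, against 8.73 ± 1.42 CPM at day 4 (adjusted p = 0.000161 on 8 libraries). The granule gene Epx averaged 0.0183 CPM at day 14 and 0.0145 CPM at day 4. Igj was the single lymphocyte gene that passed the filter and was higher. Mast cell and basophil genes gave 2 higher and 0 lower of 4 tested (sum 4.49 to 14.5 CPM at day 14 and 3.16 to 5.26 CPM at day 4). Endothelial genes gave 3 higher and 0 lower of 8, with sums of 36.4 to 85.5 CPM at day 14 and 49.0 to 54.4 CPM at day 4. Fibroblast genes gave 0 higher and 9 lower of 12, with sums of 5962 to 9672 CPM at day 14 and 10820 to 21790 CPM at day 4. Neutrophil genes gave 0 higher and 0 lower of 5, with sums of 223 to 1511 CPM at day 14 and 536 to 1523 CPM at day 4. Macrophage genes gave 3 higher and 4 lower of 10, and monocyte genes 2 higher and 4 lower of 7.

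How alike the profiles were was measured as the root mean square difference of log2(CPM + 0.5) after each gene was centred on its own mean. It is a description over libraries that share a day, and no correlation was computed, since 5 libraries are too few and the 9 form 2 clusters. Over the 9 libraries, Ehf and Mucl1 were each other's nearest of 8964 genes (0.26). Kcnq1 and Upb1 differed by 0.338, each among the 4 nearest of the other. Calcb differed from the other 4 by 0.68 to 0.877, and Kcnq1 was within that range of Ehf (0.769) and of Mucl1 (0.753). The median gene differed by 1.61 to 2.21. The shared difference between the days sets most of this measure, since the genes were chosen for it.

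Outside the 5 genes, those nearest over the 9 libraries were the following. Ear2 (0.371 and 0.368) was the second nearest of both Ehf and Mucl1, and Cd226 (0.285) the nearest of Upb1. Hr, the hairless corepressor, was the nearest of Kcnq1 (0.298), and Slc9a4, a sodium/proton exchanger, the nearest of Calcb (0.444). Cd226 was also the nearest dendritic gene of Ehf (0.45), Kcnq1 (0.418) and Mucl1 (0.368) among the 30 compared. Perp was the nearest of the 9 epithelial genes compared for all 5 genes, at 0.66 to 1.04. In the 9-library measure the dendritic and epithelial medians were almost alike for each of the 5 genes (1.27 and 1.31 for Calcb, and 1.82 and 1.82 for Ehf).

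Over the 5 day 14 libraries alone, which leave out the difference between the days, the 5 genes were not all near each other by this measure. The measure also grows with a difference in spread, here and for the marker genes below. It cannot tell such a difference from a different order of libraries. The coefficient of variation was 4.75% for Kcnq1 and 36.8% for Ehf. Ehf and Upb1 had the same order of day 14 libraries, and all 5 genes were lowest in replicate 3. Ehf differed from Upb1 by 0.265, which made Upb1 rank 16 of 8964 genes by nearness to Ehf, but Ehf rank 4264 by nearness to Upb1. Ehf differed from Mucl1 by 0.292, with Mucl1 at rank 39 from Ehf and Ehf at rank 116 from Mucl1. Kcnq1 and Calcb differed by 0.65, and the median over the 10 pairs was 0.458. The nearest gene of Mucl1 was Klri1, a lectin-like receptor of killer cells (0.0788), with 12.8, 14.2, 5.88, 13.9 and 11.9 CPM at day 14, against 2.16, 2.50, 1.64 and 1.01 CPM at day 4. The nearest of Ehf was Cnrip1, a protein that binds a cannabinoid receptor (0.183), followed by Il10 and Hsph1 (0.219 each). The nearest of Calcb were Cxcl5, a chemokine (0.209), the cytokine receptor Il7r (0.28) and the vitamin D receptor Vdr (0.30). Between the days Cxcl5 went the other way from Calcb, with a mean of 6.54 CPM at day 14 and 77.5 CPM at day 4. The means of Il7r (209.7 and 104.6 CPM) and Vdr (61.8 and 39.0 CPM) were higher at day 14. The nearest of Upb1 was Erich1 (0.0406) and that of Kcnq1 was Tshz1 (0.0151).

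Against the marker genes over day 14, the 5 genes were nearer to the dendritic than to the epithelial set. The median difference to 30 dendritic and 9 epithelial genes was 0.501 and 0.791 for Ehf, 0.282 and 0.547 for Upb1, and 0.182 and 0.347 for Kcnq1. It was 0.702 and 0.922 for Calcb and 0.498 and 0.738 for Mucl1. The dendritic medians lay close to those of all genes compared (0.493, 0.270, 0.147, 0.687 and 0.493 in the same order), and the epithelial medians lay above them. Many of the epithelial genes were at low CPM, and the part of counting error in their distance was not tested. Single markers differed from their set: Perp and Slamf7, a receptor of several blood cells, were the nearest of their sets to Ehf (0.293 each) and to Upb1 (0.0809 and 0.0915), Cd226 was nearest to Mucl1 (0.23) and Ccl17 to Calcb (0.439). Krt5 and Krt14 (1.88 and 2.33 CPM at day 14) were farther from each of the 5 genes than at least 97.9% of all genes compared. All genes compared had at least 5 CPM at day 14, whereas the markers had at least 1 CPM. Of the epithelial markers only Perp reached 5 CPM, so that set and all genes compared differ in level.

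**Figure D5:**
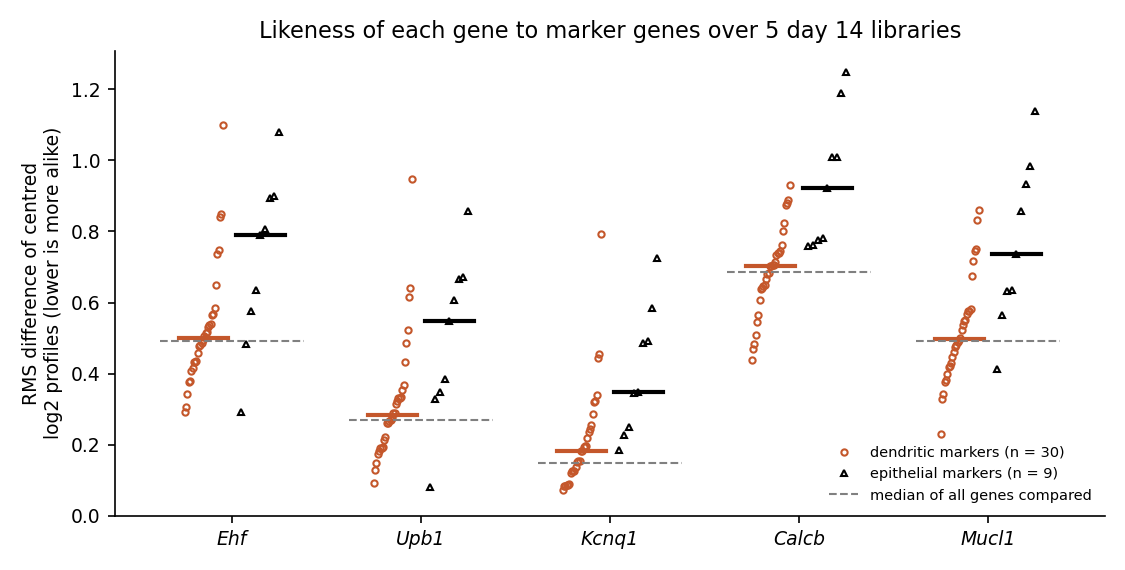
Root mean square difference of centred log2(CPM + 0.5) profiles over the 5 day 14 libraries between each of the 5 genes and 30 dendritic (circles) and 9 epithelial (triangles) genes; solid bars are medians and dashed lines the median of all genes compared. For each of the 5 genes the dendritic median lies near the dashed line and the epithelial median above it. Genes behind the dashed lines had at least 5 CPM at day 14, and the markers at least 1 CPM.

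The library in which each marker was lowest or highest was also counted. Of the 30 dendritic genes, 10 (33.3%) were lowest in day 14 replicate 3 and 7 (23.3%) highest there. Of the 9 epithelial genes, 0 were lowest there and 4 (44.4%) highest. Of all 11157 genes, 30.3% were lowest and 28.4% highest in that library. No test was made of these counts, and with 9 epithelial genes they are a description only.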

How the data were processed

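RNA of 9 libraries (5 of day 14 and 4 of day 4) was measured by paired-end sequencing of 100-base reads, from total RNA with a TruSeq RNA kit, per the labels' protocols. The submitters' processing notes name CASAVA 1.8, HISAT2 2.1.0, SAMtools 1.4, Partek 6.6, DESeq2 and the mm10 build, without their settings. The deposited table of estimated counts per gene was made by the authors and is not normalized, and a second deposited table holds the signal per gene after the authors' normalization, used here only as an alternative.

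The estimated counts were rounded to whole numbers for the fit. Library totals ran from 17982633 to 57809918. The main comparison used edgeR 4.0.16 in R 4.3.3 (TMM scaling, filterByExpr, robust quasi-likelihood fit, Benjamini-Hochberg adjustment over 13353 genes, threshold 0.05). Genes missing from day 14 replicate 5 were fitted on 8 libraries and adjusted together with the rest, 1056 of them tested. CPM were TMM-scaled. Likeness was computed on log2(CPM + 0.5) over 8964 tested genes with at least 5 CPM at day 14, leaving out those missing from day 14 replicate 5. Dendritic and epithelial markers were compared from 1 CPM at day 14. The fitting code was tested on simulated data. Gene positions came from RefSeq GRCm38.p6 and transcripts from GENCODE vM21, and 17103 symbols matched directly, 1098 by an older name and 102 not at all.

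The 5 genes, the gene lists and the tests were chosen with earlier results of these data known. Genes named in the text were the 5 genes, their 3 nearest profiles over 9 and over 5 libraries, all genes under 1 CPM at day 4 and at least 5 CPM at day 14, up to 6 members of each family list by p (at least 1 CPM on a day), 3 genes of each marker list by p and 3 by level, genomic neighbours and the sort marker genes. Chosen after their values were seen were markers and family genes at or near 0, and Batf3, C1qa, Ccl17, Dpyd, Flt3, Krt5, Krt14, Krt17, Ret, Slamf7, Sox10, Spi1, Tnfsf4, Trp63, Uchl1 and Zbtb46. Alternatives were other scalings, filters, tools (DESeq2 1.42.0, limma 3.58.1), pseudocounts, libraries left out and subsets by depth. Poisson intervals and counts cover counting error only. Some genes of the lists are not reported here.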

Additional observations from a re-analysis of the deposited data

Results flagged for a closer look

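Of 34 groups of libraries examined, 2 held a library far from the others, and chance gives about 1 in 20 such groups. Both concern day 4 replicate 1. The summed level of the neutrophil genes was 1523 CPM in that library, against 536 to 638 CPM in the 3 other day 4 libraries, and the summed level of the type 1 dendritic cell genes was 284.1 CPM, against 196 to 211 CPM. Of the dendritic sum, Cd24a, which neutrophils also express, made up 166 CPM in day 4 replicate 1 and 67.8 to 76.3 CPM in the 3 others. Mucl1, Ehf and Calcb had their highest day 4 value in the same library (0.520, 1.24 and 0.320 CPM), and Upb1 and Kcnq1 their lowest (0.0799 and 0.1199 CPM). The part of neutrophil RNA in these values was not tested.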

How the results depend on the processing

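The direction of the day 14 to day 4 difference was the same under every alternative run for each of the 5 genes and for the 92 other named genes that passed the test (0 reversed). In the 6 shallower libraries 1030 genes were higher and 1045 lower, 1 dendritic gene was lower and 5 epithelial genes were higher, and the log2 fold changes were 6.56 for Upb1, 5.05 for Kcnq1 and 5.14 for Mucl1. In the 3 deeper libraries, an alternative chosen after seeing the data in which day 14 has a single library, they were 5.75 for Ehf and 7.14 for Mucl1. With at least 5 CPM required in at least 4 libraries, 1 dendritic gene was lower and 1 epithelial gene higher, because few epithelial genes reach that level. Without a filter on low counts 1 epithelial gene was lower. A pseudocount of 0.1 moved the median difference between the 5 genes over 9 libraries to 0.886, against 0.681 with 0.5. Upper-quartile scaling gave 2411 higher and 1741 lower genes, 58.1% higher against 51.9%, and shifted the median of all genes to a log2 fold change of 0.0415. For the other changes named here the cause was not tested.

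Leaving out 1 library at a time, the log2 fold change ran from 4.99 to 5.34 for Ehf, 4.75 to 5.26 for Upb1, 3.65 to 4.30 for Kcnq1, 4.55 to 5.08 for Calcb and 5.67 to 6.68 for Mucl1. The epithelial genes called higher ran from 5 to 9, all genes called higher from 1600 to 2434 and lower from 1441 to 2381. Of those 92 genes, 26 did not pass under at least 1 alternative, 22 of them in the 6 shallower libraries, and 14 of 43 other named genes passed only under an alternative. No paired analysis was possible because the sample numbers in the labels are not shared between the days. At day 4 the levels of the 5 genes rest on 2 to 71 counts a library, which limits the precision of every fold change.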
